A study of Mus musculus with 24 samples.

Results

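The actin, tubulin, tropomyosin and myosin genes encode the filaments of the cytoskeleton and the proteins that assemble, brace or pull on them. They were chosen by name alone: every gene symbol that begins with Acta, Actb, Actg, Actn, Arpc, Tmsb, Tuba, Tubb, Tubg, Tube or Stmn, or with Tpm, Myl or Myh followed directly by a digit, without Acta2. The rule found 69 of the 16504 genes that the platform annotation names, measured on 75 array features, and no filter on low values was applied, so that all 69 were tested. They were 5 actins, 4 alpha-actinins, 6 subunits of the Arp2/3 complex, 4 thymosins, 4 tropomyosins, 10 myosin light chains, 13 myosin heavy chains, 4 alpha tubulins, 7 beta tubulins, 8 gamma and epsilon tubulins with the proteins of the gamma-tubulin complex, and 4 stathmins.

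The livers came from male mice without Abcb4 (strain FVB.129P2-Abcb4tm1Bor/J), which lack the transporter that moves phosphatidylcholine into bile, and from male FVB/NJ mice with the intact gene. Mice were taken at 3, 6, 9 and 20 weeks, counted from weaning according to the labels, and no other treatment is given. The week of each array was taken from its title; the source names of all 24 arrays give 3 weeks, so every comparison by week rests on the titles. Each of the 24 arrays, spotted cDNA according to the labels, compared knockout with wild-type liver RNA in a pair of dyes. There were 6 arrays a week, with the knockout in Cy5 on 3 of the 6. The series states 5 mice of each genotype a week and 1 dye swap, without saying which arrays repeat the same RNA, so the p-values below count more arrays than mice.

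Every value is a log2 ratio of knockout over wild type on 1 array, so that 1 stands for 2-fold higher in the knockout and -1 for 2-fold lower. The deposited values state neither their base, taken here as 2, nor which dye is on top. The sign was set by reading them as Cy5 over Cy3, which placed Abcb4 itself below 0 on all 24 arrays, with means of -0.87 ± 0.24, -1.57 ± 0.37, -1.42 ± 0.66 and -1.34 ± 0.34 at 3, 6, 9 and 20 weeks (SD, n = 6 arrays each); were Cy3 on top, every rise and fall below would change places. Before turning, arrays of opposite dye orientation correlated negatively, with weekly medians of r from -0.51 to -0.29 over all features. A gene is said to have risen or fallen where limma's moderated test, adjusted by the Benjamini-Hochberg method over all 20861 items on the array, gave a p under 0.05. Ratios hold no expression level, so neither the liver label nor the presence of a transcript in liver could be checked from them, and an array feature may be dim in both channels. In bulk tissue, fewer cells of a type and less RNA per cell cannot be told apart.

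Actin monomers polymerise into filaments that are branched by the Arp2/3 complex, coated by tropomyosin, bundled by alpha-actinin and pulled on by myosin, while thymosins hold monomers in reserve. Alpha and beta tubulin form the dimers of microtubules, gamma tubulin starts new microtubules, and stathmin destabilises them. In liver, actin filaments line the bile canaliculi, and cells that turn into myofibroblasts, dividing cells, bile duct cells and blood cells are all rich in particular isoforms. Several of these genes are textbook targets of serum response factor, which binds a sequence called the CArG box.

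RefSeq promoter windows (build GRCm38.p6, 250 bases before to 50 bases after the start of the gene) were matched for 57 of the 69 genes by symbol. The other 12 were Actb, Actg2, Actn3, Arpc5l, Myh11, Stmn1, Stmn2, Stmn4, Tubb2b, Tubb6, Tubg1 and Tubgcp2. A CArG box in either orientation, allowing only A or T in its middle, stood in the windows of 9 of them (15.8%): Acta1, Actg1, Arpc4, Myh13, Myh4, Myl3, Myl6, Myl7 and Myl9. It stood in the windows of 1.81% of all 27025 genes of the table. The other motifs were searched on both strands as plain letters. TATAAA was in 24.6% of the 57 genes and in 15.7% of all genes, CCAAT in 43.9% and 41.1%, and GGGCGG in 61.4% and 38.2%. A match is only a string of letters in a window. Below are the 250 bases before the start for Actg1 and Myl6, which hold a CArG box and rose at all 4 weeks, for Arpc4, which holds a box and did not pass the weekly test, and for Tmsb4x and Tpm4, which rose at all 4 weeks and hold none in the window. Capitals mark the CArG box. They lie, in the same order, at chr11:120348496-120348745 (minus strand), chr10:128493010-128493259 (minus strand), chr6:113377863-113378112 (plus strand), chrX:167209219-167209468 (minus strand) and chr8:72135038-72135287 (plus strand).
Actg1: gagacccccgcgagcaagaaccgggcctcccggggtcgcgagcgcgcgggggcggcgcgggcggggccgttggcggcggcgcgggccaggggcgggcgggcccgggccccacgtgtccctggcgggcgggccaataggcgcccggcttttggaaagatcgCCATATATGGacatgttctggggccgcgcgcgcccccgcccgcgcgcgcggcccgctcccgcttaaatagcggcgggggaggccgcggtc
Myl6: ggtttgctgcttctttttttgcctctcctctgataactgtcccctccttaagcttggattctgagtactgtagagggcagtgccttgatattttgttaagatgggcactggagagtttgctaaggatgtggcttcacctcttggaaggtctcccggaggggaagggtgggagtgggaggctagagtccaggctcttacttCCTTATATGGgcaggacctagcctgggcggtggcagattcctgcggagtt
Arpc4: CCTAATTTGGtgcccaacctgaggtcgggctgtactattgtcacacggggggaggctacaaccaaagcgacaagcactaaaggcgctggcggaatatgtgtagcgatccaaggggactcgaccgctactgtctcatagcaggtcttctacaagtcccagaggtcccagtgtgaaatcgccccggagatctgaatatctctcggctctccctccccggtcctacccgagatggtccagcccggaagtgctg
Tmsb4x: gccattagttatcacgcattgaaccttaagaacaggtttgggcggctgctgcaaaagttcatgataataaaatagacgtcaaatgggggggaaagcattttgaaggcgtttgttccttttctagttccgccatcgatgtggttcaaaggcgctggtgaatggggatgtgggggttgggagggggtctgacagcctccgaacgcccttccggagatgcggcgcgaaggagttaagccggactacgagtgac
Tpm4: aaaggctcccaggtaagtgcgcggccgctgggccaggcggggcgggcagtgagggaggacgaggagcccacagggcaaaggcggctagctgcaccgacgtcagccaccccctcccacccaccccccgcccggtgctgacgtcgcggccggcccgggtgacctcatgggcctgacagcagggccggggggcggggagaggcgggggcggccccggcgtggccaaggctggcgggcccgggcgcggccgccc
The box began 90 bases before the start of Actg1, 50 before the start used for Myl6 and 250 before that of Arpc4. Myl6 has 2 promoter windows, of which only 1 is shown, while each of the other genes shown has 1. Of the 9 genes with a box, Actg1 and Myl6 rose at 1 or more weeks, Myh13 fell, and the remaining 6 did not pass the test at any week. In the whole family 38 of the 69 genes passed at 1 or more weeks. The share of all items that did so was not counted.

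Across the family, 18 of 69 genes passed the test at 3 weeks (26.1%), against 7.39% of all items, and all 18 were higher in the knockout, against 3.64% of all items that rose. At that week 3 members were lower at an unadjusted p under 0.05 in limma, and 0 after adjustment, where 3.75% of all items fell. At 6 weeks 27 passed (39.1%, against 20.9% of all items), with 21 higher and 6 lower. At 9 weeks 28 passed (40.6%, against 21.3%), with 24 higher and 4 lower. At 20 weeks 18 passed (26.1%, against 13.5%), with 12 higher and 6 lower. Items that rose made up 10.8%, 10.4% and 8.09% of the array at 6, 9 and 20 weeks, and items that fell 10.1%, 10.9% and 5.37%. The median member hardly moved, at 0.05, 0.06, 0.10 and 0.04 in the 4 weeks, with all items centred on 0. Of the members that passed, 1 of 18, 12 of 27, 13 of 28 and 8 of 18 had a weekly mean within 0.5 of 0.

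**Figure D1:**
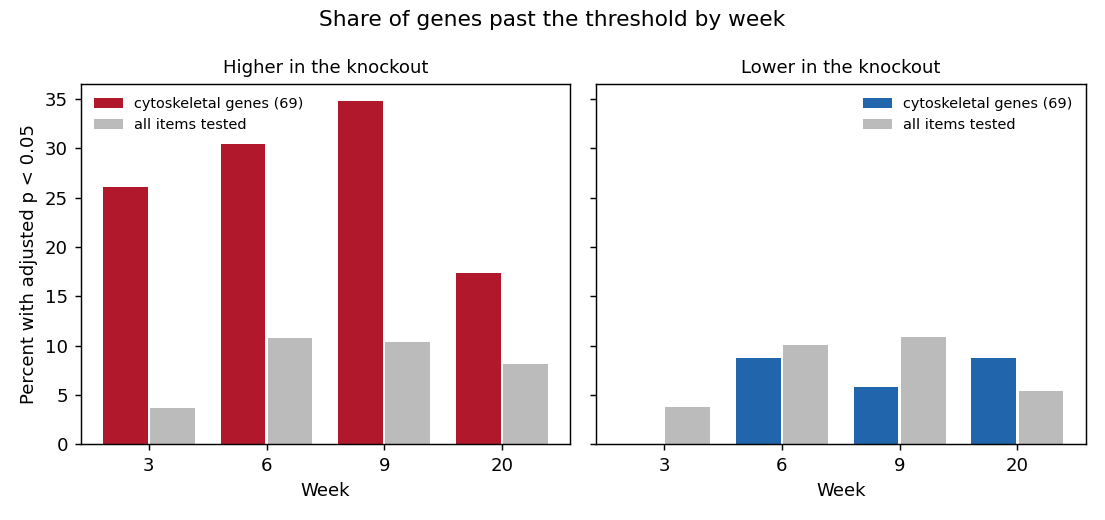
Percent of the 69 cytoskeletal genes (coloured bars) and of all 20861 items tested (grey bars) with an adjusted p under 0.05, by week, higher in the knockout on the left and lower on the right. The share of cytoskeletal genes that were higher exceeded the share of all items at each week, and none of the 69 was called lower at 3 weeks.

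In all, 38 of the 69 genes passed the test at 1 or more weeks and 31 at none. The shares of all items that passed at any week, or rose at all 4, were not counted. The 10 genes Actg1, Arpc1b, Myh9, Myl6, Stmn1, Tmsb10, Tmsb4x, Tpm4, Tuba1a and Tubb6 were higher at all 4 weeks, and Tuba4a was the one gene to pass in both directions. With 3 weeks fitted on its own, Actg1, Myh9, Tmsb10, Tuba1a and Tubb6 lost their calls at that week. Ratios were above 0 on 6 of 6 arrays for 15, 21, 22 and 15 members at 3, 6, 9 and 20 weeks, where 5.41%, 10.3%, 8.94% and 9.36% of all items were so placed. They were below 0 on 6 of 6 arrays for 1, 5, 2 and 5 members, against 4.68%, 9.59%, 9.3% and 6.84% of all items. In the mean of the 4 weeks 36 members passed (52.2%, against 38.4% of all items), 29 higher and 7 lower, against 18.7% and 19.7% of all items. A dye effect passed the test for 9 members (13%, against 11.5% of all items). All 91 weekly calls had the same sign in both dye orientations, and 26 of them ended when 1 array or another of the same week was left out.

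**Figure D2:**
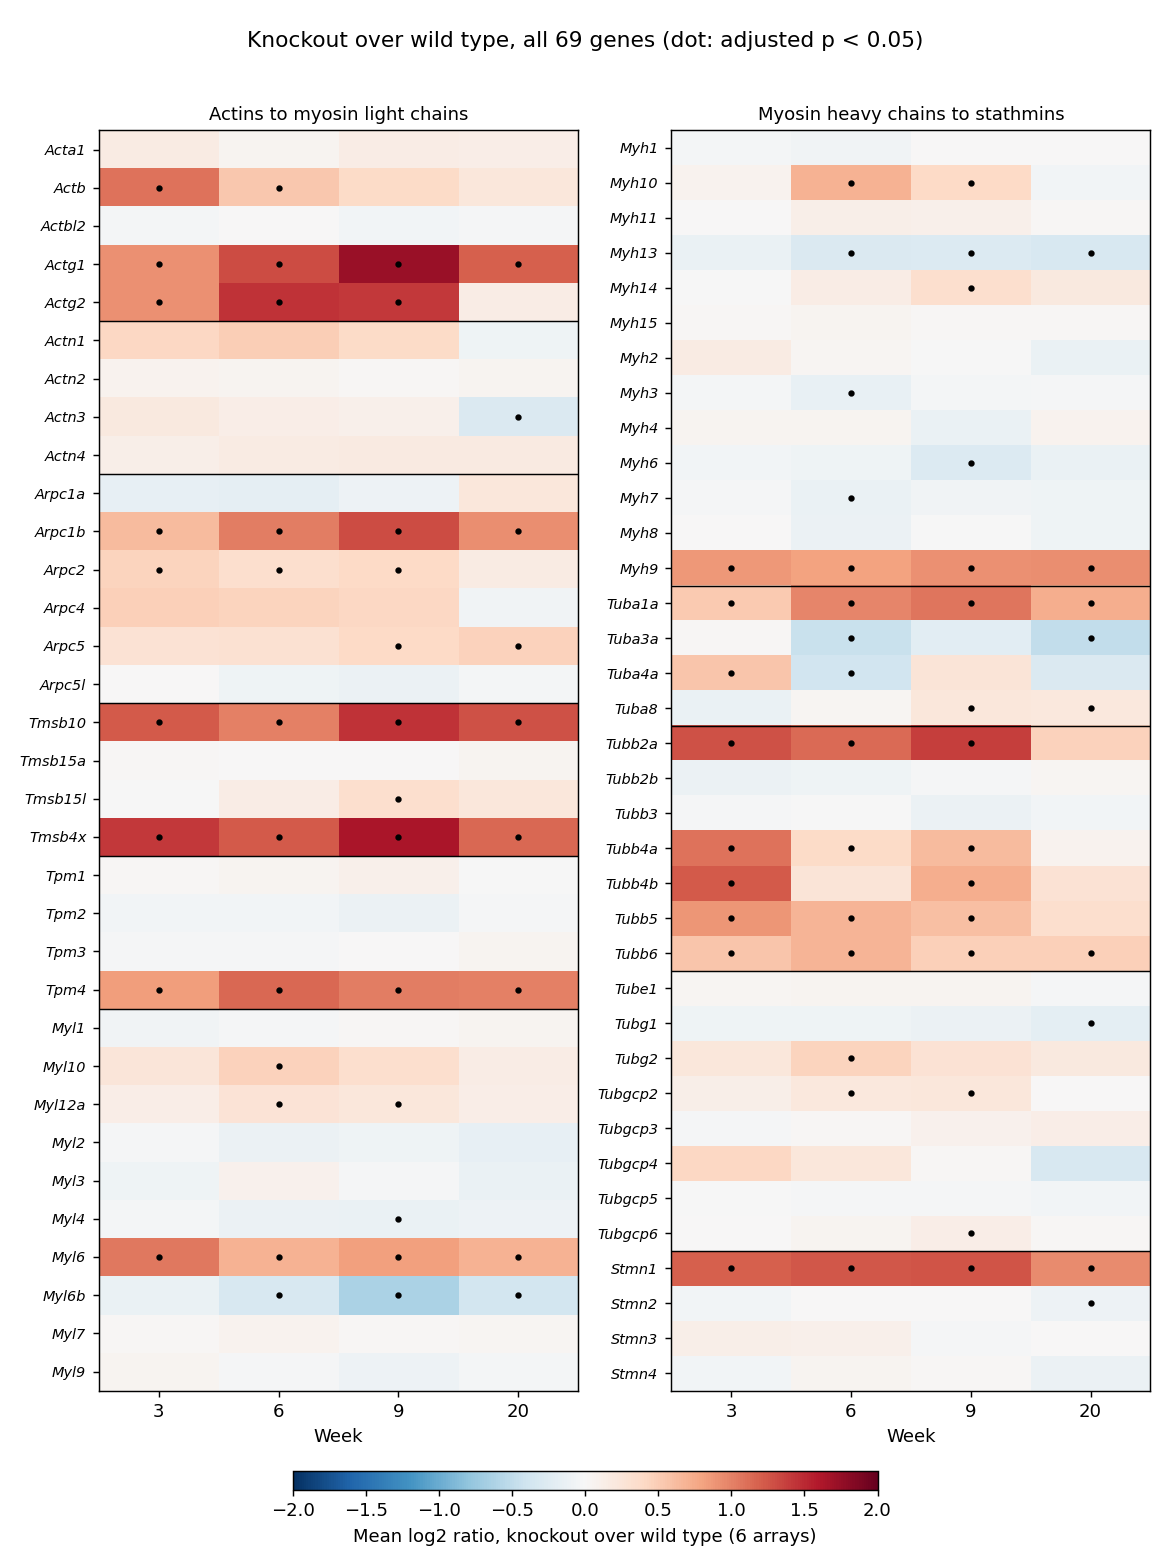
Mean log2 ratio of knockout over wild type (6 arrays a week) for all 69 genes, arranged by role with lines between the roles, at 3, 6, 9 and 20 weeks. Dots mark an adjusted p under 0.05; red rows such as Actg1, Tmsb10, Tmsb4x, Tpm4, Myl6, Myh9 and Stmn1 carry a dot at all 4 weeks, and most rows of muscle isoforms are pale.

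Of the 5 actins, 4 rose in the mean of the 4 weeks, where 18.7% of all items rose. Actb and Actg1 encode the cytoplasmic beta and gamma actins, which differ at only a few residues. Actg1 at 9 weeks gave 2.53, 2.01, 1.34, 1.17, 1.54 and 1.80 on the 6 arrays, all well above 0, with a mean of 1.73 ± 0.49 (SD, n = 6; limma adjusted p = 8.11e-06). Its means at 3, 6 and 20 weeks were 0.92 ± 0.87, 1.31 ± 0.55 and 1.19 ± 0.29. At 3 weeks its arrays ran from -0.45 to 1.86, with 1 of 6 below 0, and the adjusted p of 0.0105 became as high as 0.0672 without 1 of replicates 1, 2 or 6 and 0.228 when that week was fitted on its own.

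Actb followed another course. At 3 weeks it gave 0.26, 0.58, 1.89, 1.60, 0.53 and 1.65, with a mean of 1.09 ± 0.70 (adjusted p = 2.33e-04). The 3 arrays with the knockout in Cy5 averaged 1.71 and the 3 with it in Cy3 averaged 0.46, and these did not overlap. Over all weeks its dye effect passed the test (adjusted p = 0.0278). The means were 0.54 ± 0.40 at 6 weeks (adjusted p = 0.0305, and up to 0.107 without 1 of replicates 1, 3, 4, 5 or 6), 0.38 ± 0.49 at 9 weeks (adjusted p = 0.136) and 0.22 ± 0.58 at 20 weeks (adjusted p = 0.484). Actg1 minus Actb on the same array averaged -0.16 ± 1.07 at 3 weeks, with Actg1 above on 3 of 6 arrays. The difference averaged 0.77 ± 0.27 at 6 weeks, 1.35 ± 0.67 at 9 weeks and 0.97 ± 0.65 at 20 weeks, with Actg1 above on 6, 6 and 5 of 6 arrays. This pair was set side by side with its values known and was not tested. A feature made for either actin may also bind the transcript of the other, and how far it did so was not tested.

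Actg2, the actin of visceral smooth muscle, had means of 0.92 ± 0.64, 1.45 ± 0.50, 1.41 ± 0.44 and 0.15 ± 0.70 at 3, 6, 9 and 20 weeks. Its lowest, median and highest arrays were 0.89, 1.34 and 2.10 at 6 weeks (adjusted p = 6.18e-05), but -0.81, 0.07 and 1.30 at 20 weeks (adjusted p = 0.744). The 3-week call (adjusted p = 0.00885) became 0.0583 without replicate 3 and 0.084 with the week fitted on its own. Acta2, the smooth muscle actin that marks myofibroblasts and that the naming rule leaves out, had means of 1.03, 1.43, 1.27 and 0.02 in the same weeks. The coding sequences of these actins are close and the features may bind both, which was not tested. Acta1, the skeletal muscle actin, stayed between 0.06 and 0.16 at each week and passed only in the 4-week mean (0.13 ± 0.03 SE, adjusted p = 0.00139; above 0 on 22 of 24 arrays). Actbl2, an actin related to beta actin, had means from -0.06 to 0.01 and did not pass at any week.

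The alpha-actinins, which cross-link actin filaments, gave little. Actn1, the non-muscle form of focal adhesions, had a 4-week mean of 0.30 ± 0.10 SE (adjusted p = 0.0176) with no weekly call. Actn4, the other non-muscle form, averaged 0.11 to 0.18 in the 4 weeks and did not pass. Of the striated muscle forms, Actn2 did not pass at any week, and Actn3 was lower at 20 weeks only (-0.29 ± 0.24, adjusted p = 0.0476), a call that ended without any 1 of replicates 1, 2, 3, 5 or 6.

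The Arp2/3 complex starts new filaments on the side of old ones. Its subunit Arpc1b, the isoform that blood cells rely on, gave 1.84, 1.91, 0.99, 0.98, 1.19 and 0.90 at 9 weeks, a mean of 1.30 ± 0.45 (adjusted p = 1.80e-06), and was above 0 on all 24 arrays. Its means at 3, 6 and 20 weeks were 0.64 ± 0.46, 1.02 ± 0.55 and 0.93 ± 0.32, and it rose at each week. Arpc2, a core subunit, rose at 3, 6 and 9 weeks with means of 0.45 ± 0.28, 0.34 ± 0.20 and 0.40 ± 0.34; its 6-week call (adjusted p = 0.0246) ended without 1 of replicates 3, 4 or 5, with a highest adjusted p of 0.108. Arpc5 rose at 9 and 20 weeks, to 0.40 ± 0.32 and 0.46 ± 0.33. Arpc4 averaged 0.41 to 0.47 at 3 to 9 weeks and -0.07 ± 0.66 at 20 weeks, passed at no week, and passed in the 4-week mean at 0.31 ± 0.10 SE (adjusted p = 0.0194). Arpc1a and Arpc5l, the alternative isoforms of Arpc1b and Arpc5, did not pass at any week, with means from -0.18 to 0.23 and from -0.12 to 0.00.

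The thymosins Tmsb4x and Tmsb10 bind actin monomers, and they held the largest and the third largest 4-week means of the 69 genes. Tmsb4x at 9 weeks gave 1.17, 2.54, 1.14, 1.33, 1.85 and 1.79, a mean of 1.64 ± 0.54 (adjusted p = 5.41e-07). Its means at 3, 6 and 20 weeks were 1.41 ± 0.34, 1.23 ± 0.44 and 1.15 ± 0.39, it was above 0 on all 24 arrays, and the 4-week mean was 1.36 ± 0.08 SE (adjusted p = 4.24e-11). Tmsb10 at 9 weeks gave 1.35, 1.82, 1.94, 0.79, 1.23 and 1.57, a mean of 1.45 ± 0.42 (adjusted p = 4.74e-06). At 3 and 6 weeks it averaged 1.22 ± 0.79 and 1.00 ± 0.78 with 1 of 6 arrays below 0 in each, and at 20 weeks 1.27 ± 0.35. With 3 weeks fitted on its own, its limma adjusted p there was 0.051. Tmsb10 had the opposite dye effect to Actb: at 6 weeks it averaged 0.39 with the knockout in Cy5 and 1.61 with it in Cy3 (dye effect over all weeks, adjusted p = 0.00998). Tmsb15l rose at 9 weeks only (0.34 ± 0.37, adjusted p = 0.0168, and 0.107 at most without replicate 2 or 5), and Tmsb15a had weekly means of at most 0.05.

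**Figure D3:**
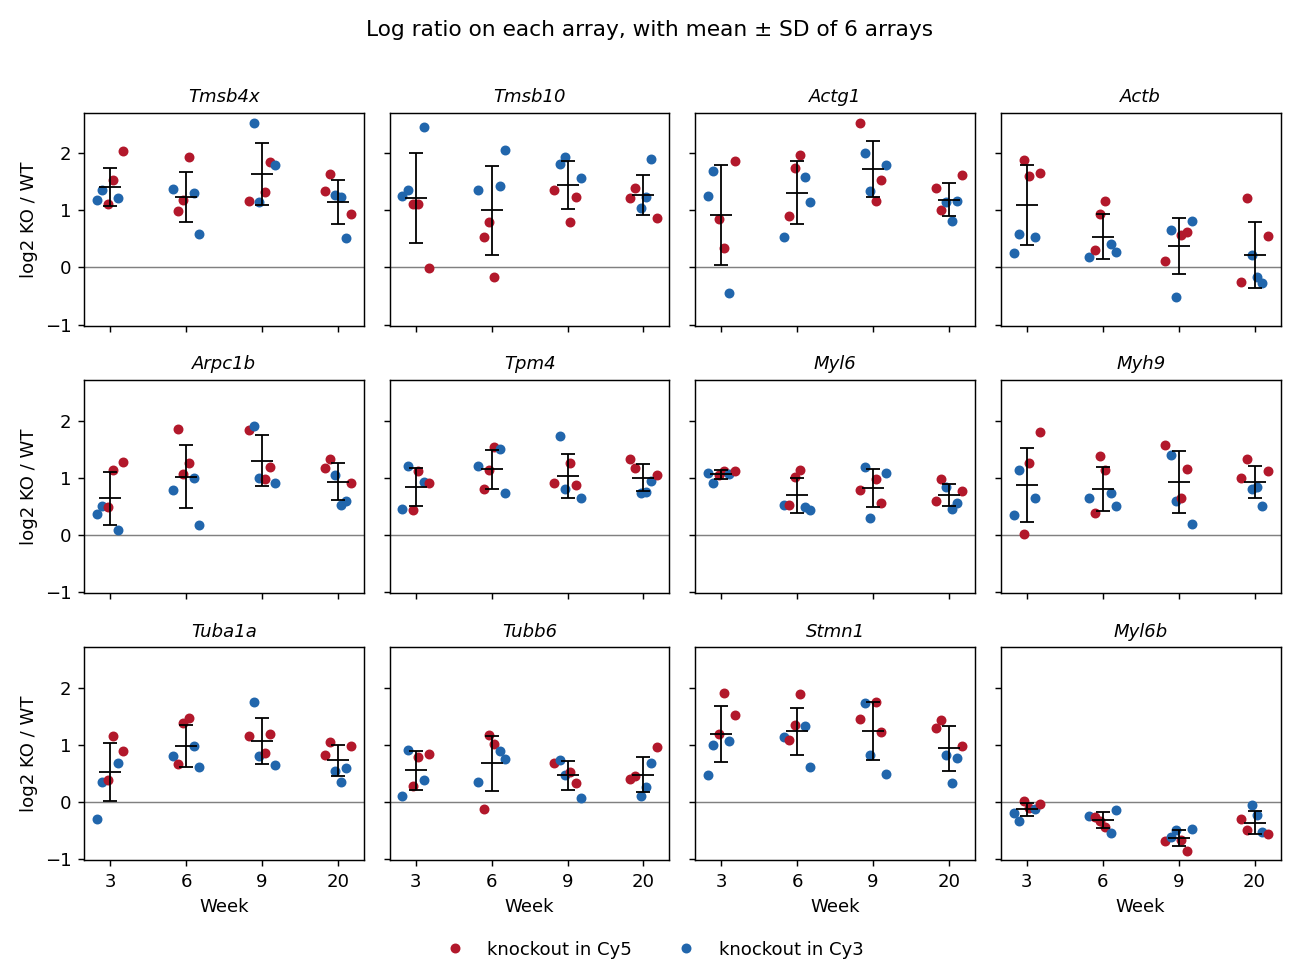
Log2 ratio of knockout over wild type on each of the 6 arrays a week for 12 genes, red with the knockout in Cy5 and blue with it in Cy3; the bars give the mean and SD. Tmsb4x, Arpc1b, Tpm4, Myl6, Myh9 and Stmn1 lie above 0 on all 24 arrays, Myl6b lies below 0 on 23, and the Actb points at 3 weeks split by dye.

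Among the tropomyosins, which wind along actin filaments, 1 of 4 rose at each week. The shares of all items that rose were 3.64%, 10.8%, 10.4% and 8.09% at 3, 6, 9 and 20 weeks. Tpm4, mostly a non-muscle form, ran from 0.74 to 1.53 at 6 weeks with a median of 1.17 and a mean of 1.15 ± 0.34 (adjusted p = 1.86e-06). Its means at 3, 9 and 20 weeks were 0.84 ± 0.33, 1.03 ± 0.39 and 1.00 ± 0.24, and no array of the 24 fell below 0. Tpm1, Tpm2 and Tpm3 had means between -0.11 and 0.10 and did not pass at any week. These genes make many splice forms, and which of them a feature reads is not given in the sources used here.

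Of the 10 myosin light chains 3 rose in the 4-week mean (Myl6, Myl12a and Myl10) and 2 fell (Myl6b and Myl4), where 18.7% of all items rose and 19.7% fell. Myl6, the essential light chain of non-muscle and smooth muscle myosin, gave 1.09, 0.91, 1.04, 1.12, 1.07 and 1.12 at 3 weeks, within a narrow range, with a mean of 1.06 ± 0.08 (adjusted p = 2.08e-07). It averaged 0.69 ± 0.31, 0.82 ± 0.34 and 0.70 ± 0.19 at 6, 9 and 20 weeks and was above 0 on all 24 arrays. Myl12a, a regulatory light chain of non-muscle myosin, rose at 6 and 9 weeks, to 0.27 ± 0.07 and 0.23 ± 0.30. Its 6-week call ended without replicate 4 (adjusted p = 0.0641). At 9 weeks replicate 2 gave 0.81 and the other 5 arrays lay between 0.01 and 0.24; the adjusted p of 0.035 became 0.209 at most with 1 array left out. Myl10 rose at 6 weeks (0.46 ± 0.35, adjusted p = 0.0152, up to 0.0828 without 1 of replicates 2, 3 or 6). Myl9, the regulatory chain of smooth muscle, is read by 2 features that went different ways (0.21 against -0.11 at 3 weeks, 0.09 against -0.28 at 9 weeks), and their average did not pass. The 2 features of Myl3 also parted (0.35 against -0.19 at 6 weeks, 0.16 against -0.23 at 9 weeks), and their average passed at no week.

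Myl6b, a light chain closely related to Myl6, fell. At 9 weeks its arrays gave -0.69, -0.61, -0.49, -0.66, -0.85 and -0.48, a mean of -0.63 ± 0.14 (adjusted p = 2.89e-07). It averaged -0.32 ± 0.14 at 6 weeks and -0.36 ± 0.20 at 20 weeks, with all arrays below 0 and adjusted p-values of 6.33e-04 and 3.60e-04, and -0.13 ± 0.12 at 3 weeks (adjusted p = 0.282). Its 4-week mean of -0.36 ± 0.03 SE was the lowest of the 69 genes.

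Non-muscle myosin heavy chains are encoded by Myh9, Myh10 and Myh14. Myh9 was above 0 on all 24 arrays. Its lowest, median and highest arrays were 0.19, 0.89 and 1.58 at 9 weeks, with a mean of 0.92 ± 0.54 (adjusted p = 4.53e-04). At 3, 6 and 20 weeks it averaged 0.87 ± 0.65, 0.80 ± 0.39 and 0.93 ± 0.28; with 3 weeks fitted on its own its adjusted p there was 0.137. Myh10 rose at 6 weeks (lowest, median and highest arrays 0.25, 0.62 and 1.16; mean 0.70 ± 0.38, adjusted p = 2.45e-05) and at 9 weeks (0.40 ± 0.26), with means of 0.07 ± 0.06 at 3 weeks and -0.06 ± 0.26 at 20 weeks. Myh14 rose at 9 weeks only, to 0.34 ± 0.22 (adjusted p = 0.00166), and averaged 0.20 ± 0.12 at 20 weeks (adjusted p = 0.0733). Myh11, the smooth muscle heavy chain, averaged 0.00 to 0.11 and passed at no week.

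Of the 16 genes of striated muscle in the family, the numbers that fell were 3 at 6 weeks, 3 at 9 weeks and 2 at 20 weeks, where 10.1%, 10.9% and 5.37% of all items fell, and the weekly median lay between -0.08 and -0.02. Myh13, the heavy chain of eye and throat muscles, fell at 6, 9 and 20 weeks: its means were -0.29 ± 0.24, -0.28 ± 0.13 and -0.32 ± 0.24, and 23 of 24 arrays were below 0. Its dye effect also passed the test (adjusted p = 0.00798). Myh6, a cardiac heavy chain, fell at 9 weeks (-0.28 ± 0.20, adjusted p = 0.0073, and 0.0663 with that week fitted on its own). The 2 features of Myh2 differed (0.27 against 0.04 at 3 weeks, -0.29 against 0.01 at 20 weeks), and their average passed at no week. The falls of Myh3 and Myh7 at 6 weeks (-0.15 ± 0.18 and -0.13 ± 0.09) and of Myl4 at 9 weeks (-0.14 ± 0.14) were smaller, and each call ended with 1 or another array left out. A list of 10 skeletal muscle markers measured beside them had weekly medians from -0.01 to 0.02, with 2 higher and 1 lower in the 4-week mean.

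Of the alpha tubulins, Tuba1a rose at all 4 weeks. At 9 weeks its lowest, median and highest arrays were 0.65, 1.01 and 1.75, with a mean of 1.07 ± 0.40 (adjusted p = 6.61e-06). It averaged 0.53 ± 0.51, 0.98 ± 0.37 and 0.73 ± 0.27 at 3, 6 and 20 weeks, and the 3-week call (adjusted p = 0.0164) ended without 1 of replicates 4, 5 or 6, with an adjusted p of up to 0.082, and at 0.155 with that week on its own. Tuba3a, a testis form in textbooks, fell at 6 and 20 weeks (-0.45 ± 0.33 and -0.50 ± 0.21) with means of 0.02 ± 0.28 and -0.21 ± 0.29 at 3 and 9 weeks. Tuba8 rose at 9 and 20 weeks by small amounts (0.23 ± 0.21 and 0.21 ± 0.18). Its 9-week call ended without replicate 1 or 4, with an adjusted p of up to 0.077. At 20 weeks the call ended without any 1 of replicates 1, 2, 4, 5 or 6.

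Of the 7 beta tubulins 5 rose at 3 weeks, Tubb2a, Tubb4a, Tubb4b, Tubb5 and Tubb6, and 4, 5 and 1 rose at 6, 9 and 20 weeks. Of all items, 3.64%, 10.8%, 10.4% and 8.09% rose at 3, 6, 9 and 20 weeks. Tubb2a had lowest, median and highest arrays of 0.17, 1.44 and 2.70 at 9 weeks (mean 1.39 ± 0.87, adjusted p = 4.46e-05) and averaged 1.27 ± 0.26, 1.13 ± 0.53 and 0.46 ± 0.23 at 3, 6 and 20 weeks. Its 2 features agreed in sign at each week, at 1.60 and 0.95 at 3 weeks and 0.76 and 0.16 at 20 weeks. Tubb5, the common form of dividing cells, had arrays from 0.24 to 1.35 at 3 weeks with a median of 0.93 (mean 0.88 ± 0.42, adjusted p = 4.93e-05), was above 0 on all 24 arrays, and averaged 0.68 ± 0.36, 0.60 ± 0.29 and 0.34 ± 0.19 afterwards. Tubb6 rose at all 4 weeks with means from 0.47 to 0.68, and its calls at 3, 9 and 20 weeks each ended with 1 or another array left out. The 3-week call of Tubb6 also ended with that week fitted on its own (limma adjusted p = 0.0865). Tubb2b and the neuronal Tubb3 stayed between -0.12 and 0.04. Beta tubulins share much of their coding sequence, and how far a feature binds its relatives was not tested.

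Gamma tubulin and its complex changed little. Tubg2 rose at 6 weeks (0.45 ± 0.33, adjusted p = 0.0212) and Tubg1 fell at 20 weeks (-0.19 ± 0.09, adjusted p = 0.0147, all 6 arrays below 0), and both calls ended with 1 or another array left out. Tubgcp2 rose at 6 and 9 weeks (0.21 ± 0.18 and 0.23 ± 0.14) and Tubgcp6 at 9 weeks (0.14 ± 0.11), again calls that 1 array could end. Tubgcp3, Tubgcp4, Tubgcp5 and the epsilon tubulin Tube1, a centriole protein, passed at no week.

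Stathmins bind tubulin dimers and favour the shrinking of microtubules. Stmn1, the form of dividing cells, gave 1.45, 1.74, 0.83, 1.76, 1.23 and 0.49 at 9 weeks, a mean of 1.25 ± 0.51 (adjusted p = 1.13e-06). It averaged 1.20 ± 0.49, 1.24 ± 0.41 and 0.94 ± 0.40 at 3, 6 and 20 weeks, was above 0 on all 24 arrays, and had a 4-week mean of 1.16 ± 0.07 SE (adjusted p = 1.87e-11). The neuronal forms Stmn2, Stmn3 and Stmn4 had means between -0.12 and 0.11; Stmn2 at 20 weeks (-0.10 ± 0.12, adjusted p = 0.0479) passed, and lost the call without any 1 of replicates 2, 3, 4, 5 or 6.

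The knockout effect differed between weeks for 7 of the 69 genes in limma's F test (10.1%, against 5.08% of all items): Tubb4a (adjusted p = 7.16e-04), Tuba4a (0.00253), Myh10 (0.00594), Myl6b (0.00814), Tubb4b (0.011), Actg2 (0.0301) and Tuba8 (0.0458). The F test for Tuba8 lost its call when any 1 of 18 of the 24 arrays was left out, with an adjusted p of up to 0.107, and that for Actg2 without replicate 1, 2, 3 or 4 of 20 weeks, with up to 0.0884. Tubb4a, a beta tubulin best known from brain, gave 1.22, 0.96, 1.24, 1.09, 1.02 and 0.97 at 3 weeks and -0.21, -0.28, -0.04, 0.13, 0.46 and 0.35 at 20 weeks, groups that did not overlap. Its means were 1.09 ± 0.12, 0.38 ± 0.19, 0.63 ± 0.30 and 0.07 ± 0.30, so the 20-week ratio was lower than the 3-week ratio by a difference of -1.02 ± 0.13 SE (adjusted p = 1.80e-04). Tubb4b, which is widely expressed, had means of 1.22 ± 0.24, 0.26 ± 0.26, 0.72 ± 0.56 and 0.29 ± 0.28, with differences of -0.97 ± 0.20 SE for 6 minus 3 weeks and -0.94 ± 0.20 SE for 20 minus 3 weeks (adjusted p = 0.0138 and 0.00825). The features of this related pair could bind both transcripts, which was not tested.

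Tuba4a changed sign. It gave 0.92, 0.58, 0.70, 0.30, 0.89 and -0.06 at 3 weeks (mean 0.56 ± 0.38, adjusted p = 0.00279) and -0.63, -0.49, -0.30, -0.58, -0.19 and -0.13 at 6 weeks (mean -0.39 ± 0.21, adjusted p = 0.0198, and 0.0896 at most without replicate 1 or 4). The 3-week call ended with that week fitted on its own (adjusted p = 0.0557). The 6-week call ended with the arrays scaled to a common spread (adjusted p = 0.0604). The means were 0.25 ± 0.41 at 9 weeks and -0.29 ± 0.34 at 20 weeks, neither past the threshold. The difference between 6 and 3 weeks was -0.94 ± 0.16 SE (adjusted p = 0.00379) and that between 20 and 3 weeks -0.84 ± 0.16 SE (adjusted p = 0.00405), and both kept an adjusted p under the threshold with any 1 array left out.

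Between 20 and 3 weeks 6 members differed (8.7%, against 4.57% of all items), 5 with a lower ratio at 20 weeks (1.54% of all items) and 1 with a higher ratio (3.02% of all items), Tuba8 (0.34 ± 0.09 SE, adjusted p = 0.0366). The others beside the 3 tubulins above were Actb (-0.87 ± 0.25 SE, adjusted p = 0.0465) and Actn3 (-0.49 ± 0.13 SE, adjusted p = 0.0405), and for Actb, Actn3 and Tuba8 leaving out 1 or another array ended the call. Between 6 and 3 weeks 4 members differed (5.8%, against 1.3% of all items, 0.695% higher and 0.604% lower): Myh10 with a higher ratio at 6 weeks (0.63 ± 0.14 SE, adjusted p = 0.0191, and 0.061 at most without replicate 3, 4 or 5 of 6 weeks) and Tuba4a, Tubb4a (-0.70 ± 0.13 SE) and Tubb4b with lower ones. No member differed between 9 and 6 weeks in limma (0 of 69, with 4 at an unadjusted p under 0.05, against 0.0767% of all items called) or between 20 and 9 weeks (0 of 69, with 11 at an unadjusted p under 0.05, against 0.0959%).

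**Figure D4:**
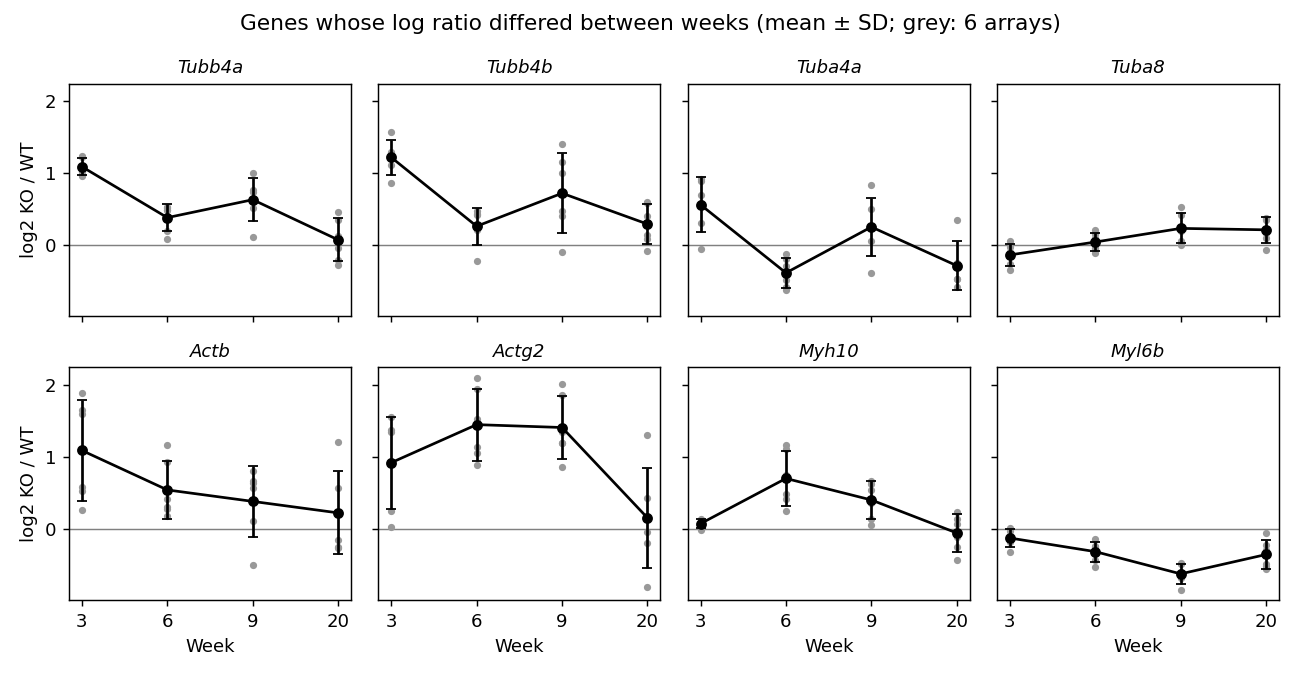
Log2 ratio of knockout over wild type by week for 8 genes, as mean and SD (black) over the 6 arrays (grey), with the weeks evenly spaced and not to scale. Tubb4a and Tubb4b are highest at 3 weeks, Tuba4a lies above 0 at 3 weeks and below it on all 6 arrays at 6 weeks, Actg2 is near 0 only at 20 weeks, and Myl6b is lowest at 9 weeks.

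Some related members sit side by side in the genome, and 10 such pairs were direct neighbours among protein-coding genes of the GRCm38.p6 annotation. For each the ratio of the gene with the larger 4-week mean minus that of its neighbour was taken on the same array. Arpc1b minus Arpc1a, on chromosome 5, averaged 0.80 ± 0.25, 1.21 ± 0.47, 1.40 ± 0.24 and 0.70 ± 0.23 at 3, 6, 9 and 20 weeks. Myl6 minus Myl6b, on chromosome 10, averaged 1.19 ± 0.09, 1.02 ± 0.38, 1.45 ± 0.35 and 1.06 ± 0.29, and Tubb2a minus Tubb2b, on chromosome 13, 1.39 ± 0.36, 1.22 ± 0.63, 1.42 ± 0.82 and 0.43 ± 0.32. In these 3 pairs the difference was above 0 on 6 of 6 arrays at each week. An exact two-sided sign-flip permutation test on 6 arrays can reach no lower than p = 0.0312. Of the 40 tests, 1 for each pair and week, 18 reached it, and after adjustment over the 40 the smallest was 0.0693. With that floor, a test could have passed only if more of the 40 had reached it. These tests therefore cannot decide whether a single pair differed. Tubg2 minus Tubg1, on chromosome 11, was above 0 on all 6 arrays only at 6 weeks (0.54 ± 0.35). The heavy chains of striated muscle on chromosomes 11 and 14 differed from their neighbours by at most 0.27 in the weekly mean.

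**Figure D5:**
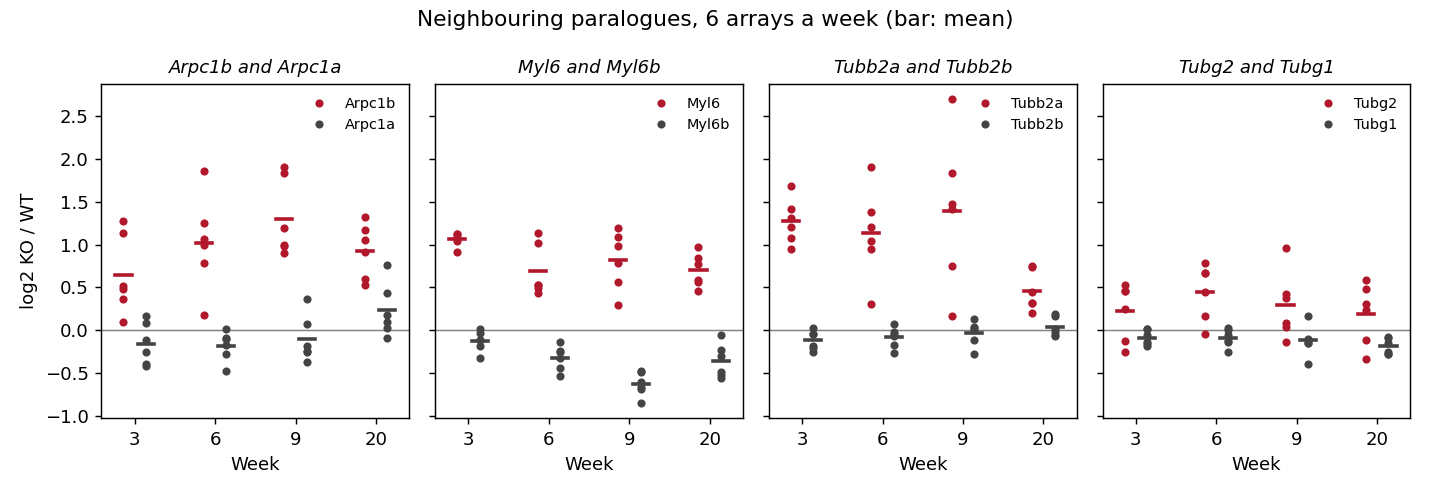
Log2 ratio of knockout over wild type on each of 6 arrays a week for 4 pairs of neighbouring related genes, in red for the gene with the larger 4-week mean and in dark grey for its neighbour; the bars are means. Arpc1b, Myl6 and Tubb2a lie above 0 on all 24 arrays, by as little as 0.09 for Arpc1b at 3 weeks and 0.17 for Tubb2a at 9 weeks, while Arpc1a and Tubb2b have weekly means from -0.18 to 0.23 and from -0.12 to 0.04 and Myl6b lies below 0 on 23.

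Other genes of the cytoskeleton were counted from lists of regulators, 114 genes measured in all, none of them a member. In the 4-week mean 61 rose and 9 fell, against 18.7% and 19.7% of all items. Of 37 actin filament regulators 24 rose and 3 fell, led by Pls1, a plastin that bundles filaments in microvilli (1.58 ± 0.07 SE), Tagln2 (1.35 ± 0.06 SE) and Sh3bgrl3 (0.81 ± 0.05 SE), each above 0 on all 24 arrays. Of 14 linkers of membrane and filaments 7 rose and 1 fell, with Ctnna1, the catenin of cell junctions, at 0.56 ± 0.04 SE. Of 27 microtubule-associated proteins and motors 12 rose and 2 fell, with the dynein light chain Dynll1 at 0.70 ± 0.08 SE. Of 13 unconventional myosins 6 rose and 2 fell, with Myo9b at 0.70 ± 0.05 SE. Of 3 partners of the Arp complex 1 rose, Actr3 (0.27 ± 0.05 SE). Of 7 genes for serum response factor and its cofactors 2 rose and 2 fell, the cofactors Mrtfa and Mrtfb moving opposite ways at 0.14 ± 0.03 SE and -0.15 ± 0.03 SE.

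Markers of several cell types also differed between knockout and wild type on these arrays, and their part in these results was not tested. At 3, 6, 9 and 20 weeks 3.64%, 10.8%, 10.4% and 8.09% of all items rose and 3.75%, 10.1%, 10.9% and 5.37% fell. Bile duct markers rose for 5, 8, 8 and 8 of 9 measured at 3, 6, 9 and 20 weeks, with the median of the list between 0.29 and 1.61 over the 24 arrays; Krt8, a keratin that hepatocytes also make, had a 4-week mean of 1.81 ± 0.10 SE, and the duct keratins Krt19 and Krt7 had means of 0.02 and -0.06 at 3 weeks and of 0.51 and 0.39 at 6 weeks. Leukocyte and macrophage markers rose for 4, 8, 8 and 7 of 10, with list medians from 0.10 to 1.23 and Lyz2 at 1.81 ± 0.07 SE. Stellate cell and smooth muscle markers rose for 4, 7, 7 and 3 of 12, with list medians from -0.02 to 0.60 and Col1a1 at 1.28 ± 0.07 SE. Proliferation markers rose for 8, 8 and 6 of 13 at 3, 6 and 9 weeks and for 0 of 13 in limma at 20 weeks (3 at an unadjusted p under 0.05), with list medians from 0.03 to 0.72. At 20 weeks Stmn1 rose, at 0.94 ± 0.40. Tubb5, at 0.34 ± 0.19, was above 0 on all 6 arrays there but did not pass (limma adjusted p = 0.067). The difference between Stmn1 and Tubb5 was not tested. Hepatocyte markers fell for 3, 1, 2 and 1 of 8, with list medians from -1.22 to 0.04; the 4-week means were -1.29 ± 0.07 SE for Cyp2e1, but -0.01 ± 0.11 SE for Alb and 0.02 ± 0.13 SE for Hnf4a, which did not pass.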

How the data were processed

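The deposited values, read here as log2 ratios of Cy5 over Cy3, were made by the authors from 2-colour scans of spotted cDNA arrays, per the labels, after RNeasy extraction and FairPlay labelling. Their base, dye order, background correction and any scaling or filtering are not stated there. The table held 22575 features without missing values, medians between -0.037 and 0.015, and no intensities, so precision rests on the number of arrays. Features were named through GEO's platform annotation, 18218 with 1 gene, 16 with several and 4341 without any. The value rows follow the print layout, not the annotation's order. This was checked on the copies of 48 accessions that were spotted many times. After reordering, the median r among the copies of an accession averaged 0.691, against 0.0178 by a direct join. It was above 0.5 for 33 of the 48 after reordering. Signs were turned to knockout over wild type, features of a symbol averaged and arrays centred on their median. limma 3.58.1 (R 4.3.3) fitted week means and 1 dye term over 24 arrays, with no replicate block, to 20861 items; the dye term passed for 11.5% of them and for 9 of the 69 genes. Adjusted p-values are Benjamini-Hochberg, two-sided, threshold 0.05. One list of regulators enters the total of regulators and is not reported here by itself. Genes, lists and tests were chosen with earlier results of these data known. Values of each array are printed for Actb, Actg1, Tmsb4x, Tmsb10, Stmn1 and members singled out in their role, and as lowest, median and highest, or as mean and SD, for others. Same-numbered arrays of different weeks correlated at a median r of 0.09, over 0.1 in 18 of 36 pairs, against -0.01 for other pairs, so they were not treated as paired. Alternatives tried were other scalings, no dye term, single weeks, array weights, a robust prior, feature medians, a replicate block, the closest opposite-dye pair averaged, and each array left out.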

Additional observations from a re-analysis of the deposited data

Results flagged for a closer look

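Among 276 sets of 6 arrays (69 genes at 4 weeks), 11 (3.99%) held an array whose gap to the nearest other exceeded Dixon's critical value of 0.625 times the range; chance gives about 1 set in 20. At 9 weeks replicate 2 stood apart for Arpc5 (1.01, the others 0.10 to 0.39), Myl12a (0.81, the others 0.01 to 0.24) and Myh4 (-0.85, the others -0.13 to 0.19). Without it the adjusted p of Arpc5 at 9 weeks became 0.0691. Other arrays of 9 weeks stood apart for Myh6 (replicate 3 at 0.10, the others -0.47 to -0.29), Myl1 (replicate 6 at 0.27) and Tpm1 (replicate 5 at 0.31). At 20 weeks they were replicate 6 for Actn2 (-0.15), replicate 2 for Myl7 (0.21), replicate 1 for Tpm1 (-0.27) and replicate 5 for Tuba4a (0.35, the others -0.58 to -0.25). At 6 weeks it was replicate 6 for Tubb4b (-0.23, the others 0.21 to 0.47).

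The knockout effect differed between weeks, by limma's F test over all 4 weeks, for Tubb4a (adjusted p = 7.16e-04), Tuba4a (0.00253), Myh10 (0.00594), Myl6b (0.00814), Tubb4b (0.011), Actg2 (0.0301) and Tuba8 (0.0458, and up to 0.107 with 1 array left out). The log2 ratio at 20 weeks minus that at 3 weeks passed the test for Tubb4a at -1.02, Tubb4b at -0.94, Actb at -0.87, Tuba4a at -0.84, Actn3 at -0.49 and Tuba8 at 0.34. The ratio at 6 weeks minus that at 3 weeks passed for Tubb4b at -0.97, Tuba4a at -0.94, Tubb4a at -0.70 and Myh10 at 0.63.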

How the results depend on the processing

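No weekly value of the 91 calls changed sign under any alternative listed here, and 60 calls passed under all of them. Arrays were left out only from the week of the call. Fitting each week on its own ended 20 calls and gave 11 higher members at 3 weeks and 2 lower ones at 9 weeks. Averaging the closest opposite-dye pair, which stands in for the unstated dye swap, ended 12, with 3 lower members at 20 weeks, 4 that differed between weeks and 3 between 20 and 3 weeks. Scaling the arrays to a common spread ended 9, with 3 lower members at 6 weeks and 11 that differed between 20 and 3 weeks; without centring 12 were lower in the 4-week mean, and array weights gave 1 member that differed between 20 and 9 weeks. Quantile normalization ended 5 calls. The cause of these shifts was not tested.

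With each array left out in turn, higher members numbered 15 to 17 at 3 weeks, 16 to 19 at 6 weeks, 20 to 23 at 9 weeks, 10 to 12 at 20 weeks and 28 to 31 in the 4-week mean. Lower members numbered 0 at 3 weeks, 3 to 6 at 6 weeks (3 without replicate 4), 3 to 6 at 9 weeks, 3 to 5 at 20 weeks (3 without replicate 3 or 6) and 7 to 9 in the mean. The F test gave 5 to 8, and the differences gave 3 to 4 (6 minus 3 weeks), 0 (9 minus 6), 0 to 1 (20 minus 9, 1 without replicate 2 or 4 of 9 weeks) and 3 to 10 (20 minus 3). The lowest of these, 3, came without replicate 3 or 5 of 3 weeks or 1 or 6 of 20 weeks, the highest without replicate 2 of 9 weeks. Regulators ranged from 60 to 64 higher and 7 to 10 lower.

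The replicate numbers were not taken to pair the arrays: same-numbered arrays of different weeks correlated at -0.36 to 0.50 (median 0.09, with 18 of 36 pairs over 0.1, against a median of -0.01 for other pairs) and 7 of 24 were closest to their own number. With the replicate block, higher members numbered 19, 21, 25 and 12 and lower ones 0, 6, 4 and 5 at 3, 6, 9 and 20 weeks, 28 and 7 in the mean, with 6 in the F test and 62 and 9 regulators. The block ended the calls of Stmn2 (adjusted p = 0.0567) and Tuba8 (0.0502) at 20 weeks.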
